A study of Mus musculus with 5 samples.

Results

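Dense clusters of KLF5 binding were described in mouse embryonic stem (ES) cells from 1 chromatin immunoprecipitation sequencing (ChIP-seq) library. Peak summits on chr1 to chr19 were sorted, neighbours at most 12.5 kb apart were joined into chains, and chains with at least 10 summits were kept. The rule gave 283 chains that hold 3782 of the 44760 V5-KLF5 peaks on these chromosomes, and the other 40978 peaks are the set they are compared with. The chains were chosen by measured summit positions, so their number of summits and the closeness of these are not findings. Strength, position and input at the same peaks come from the same library and are given as description, with no test.

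Wild-type ES cells that overexpress V5-KLF5 gave 3 libraries, from an anti-V5 and a normal mouse IgG immunoprecipitate and from input DNA, and ES-D3 cells gave 2, from an anti-V5 immunoprecipitate and from input, each the only library of its group. V5 is a short epitope tag that the anti-V5 antibody recognises. Per the labels, the overexpressing cells were derived from C57B6/J mice, and ES-D3 is an untagged wild-type ES line, although the header of its peak list carries the run name JM8.N4. The promoter that drives V5-KLF5, and whether the cells are 1 clone, are not given in the sources used here. The anti-V5 library of the V5-KLF5 cells held 28.8 M tags, of which 23.2 M were kept for peak calling, and gave 45378 peaks on all sequences. The IgG list of the same cells holds 3 peaks and the anti-V5 list of the untagged cells 0, and none of the 3 lies in a chain. With 1 library a group, no value has a replicate check, and intervals at 95% (exact Clopper-Pearson for shares, order statistics for medians) cover counting error only. Intervals over peaks count each peak as separate, although chain peaks come in groups, so they can be too narrow.

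KLF5, a Krüppel-like factor, binds DNA through zinc fingers and recognises CACCC boxes and other GC-rich elements. It is known for supporting self-renewal of ES cells and for its need in the trophectoderm, the outer layer of the blastocyst. Regulatory factors in ES cells often sit in dense groups of sites, and the linking distance used here is a common choice for joining neighbouring enhancers into 1 domain.

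The summit of a chain lay within 250 bases before to 50 bases after the start site of 309 genes. The rule for named genes gave 8 such promoters, each with a chain summit. Of these, 4 from chains with 24 to 34 summits are shown, picked after their values were seen. The sequences are from RefSeq on GRCm38.p6 (mm10), 5′ to 3′ on the strand of the gene. Capitals mark matches to CCCNCCC or to the CACCC-type element CCACGCCC on either strand. Nectin2 lies on the minus strand at chr7:19749524-19749823, with the summit 126 bp before the start site and a fold enrichment over input of 12.5. Cadm4 lies on the plus strand at chr7:24481773-24482072, with the summit 197 bp before the start site and a fold enrichment of 12.4. Epha2 lies on the plus strand at chr4:141300971-141301270, with the summit 103 bp before the start site and a fold enrichment of 12.3. Cldn4 lies on the minus strand at chr5:134946885-134947184, with the summit 68 bp before the start site and a fold enrichment of 11.2. CCACGCCC is found at 2 places in the Nectin2 window, at 1 place in each of the Cadm4 and Epha2 windows and at 0 places in that of Cldn4. The 4 windows not printed, of Gabbr1, Ifrd2, Myadm and Cipc, have 0 matches to it, so it is in 3 of the 8. Over all windows with a chain summit it is in 19.4%. Gabbr1, Ifrd2 and Myadm have higher fold enrichments than the 4 printed, at 18.8, 17.5 and 13.6.
Nectin2: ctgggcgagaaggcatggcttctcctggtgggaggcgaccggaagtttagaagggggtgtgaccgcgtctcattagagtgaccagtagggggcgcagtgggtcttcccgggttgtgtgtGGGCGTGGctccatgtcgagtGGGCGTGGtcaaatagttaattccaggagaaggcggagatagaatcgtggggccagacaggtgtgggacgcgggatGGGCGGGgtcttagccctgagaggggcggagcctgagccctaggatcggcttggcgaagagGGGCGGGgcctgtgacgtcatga
Cadm4: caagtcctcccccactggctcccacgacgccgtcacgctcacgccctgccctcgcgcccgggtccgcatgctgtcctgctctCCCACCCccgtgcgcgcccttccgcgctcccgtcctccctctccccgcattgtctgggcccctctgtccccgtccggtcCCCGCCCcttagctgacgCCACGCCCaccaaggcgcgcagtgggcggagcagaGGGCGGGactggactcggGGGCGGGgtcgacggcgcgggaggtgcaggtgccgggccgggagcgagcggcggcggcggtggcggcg
Epha2: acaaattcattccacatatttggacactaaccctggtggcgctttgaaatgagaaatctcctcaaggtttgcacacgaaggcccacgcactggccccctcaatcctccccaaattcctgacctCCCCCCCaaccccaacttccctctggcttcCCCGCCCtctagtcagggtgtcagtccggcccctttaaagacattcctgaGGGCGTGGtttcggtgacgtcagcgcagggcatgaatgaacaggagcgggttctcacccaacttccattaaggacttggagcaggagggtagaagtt
Cldn4: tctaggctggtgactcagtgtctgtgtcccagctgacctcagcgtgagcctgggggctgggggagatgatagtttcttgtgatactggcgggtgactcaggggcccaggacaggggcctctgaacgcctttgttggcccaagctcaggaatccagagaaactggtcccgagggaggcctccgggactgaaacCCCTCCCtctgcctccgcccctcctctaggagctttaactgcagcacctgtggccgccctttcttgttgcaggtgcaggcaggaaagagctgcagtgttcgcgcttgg

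Of the microRNA hairpins in chains, a selection from 2 clusters is shown, and each cluster lies whole in a chain. Other groups also do, such as Mir191 with Mir425 and Mir296 with Mir298. Of the 2 clusters shown, the first is known from ES cells and the other from epithelial and sensory cells. Mature RefSeq sequences are given 5′ to 3′ with the seed, bases 2 to 8, in capitals. In the chain at the miR-290 to miR-295 locus, miR-291a-3p, miR-294-3p and miR-295-3p share the seed AAGUGCU, and miR-290a-3p and miR-291b-3p carry other seeds. In the chain at the miR-182, miR-96 and miR-183 locus each of the 3 has its own seed.
miR-291a-3p: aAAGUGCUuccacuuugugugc
miR-294-3p: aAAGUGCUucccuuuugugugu
miR-295-3p: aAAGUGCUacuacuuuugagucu
miR-290a-3p: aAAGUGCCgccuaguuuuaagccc
miR-291b-3p: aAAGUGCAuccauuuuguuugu
miR-182-5p: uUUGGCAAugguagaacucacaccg
miR-96-5p: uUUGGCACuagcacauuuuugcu
miR-183-5p: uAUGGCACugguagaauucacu

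A typical chain was 46.8 kb long, from its first to its last summit, and held 12 summits and 2 protein-coding genes (medians of 283 chains). Spans ran from 11.9 kb to 125 kb, with quartiles of 37.8 and 57.8 kb, and summits from 10 to 34. The pileup, which is the height of the extended tags at a summit, summed to a median of 404 per chain, with a range of 205 to 1497. Chains were not evenly built. The 3 summits with the highest pileup held a median of 44.4% of the summed pileup of their chain, and between 21.6% and 67.2% over all chains. A peak enriched at least 10-fold over input was present in 249 of the 283 chains (88.0%) and at least 3 in 102 (36.0%), while 34 chains (12.0%) had none. Over all peaks of these chromosomes, 13.0% were enriched this much. A chain holds at least 10 peaks by the rule and so has many chances to include 1, so these counts are a description only. The strongest peak of a chain ranged from a fold enrichment of 6.81 to 53.0, with a median of 16.0.

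**Figure D1:**
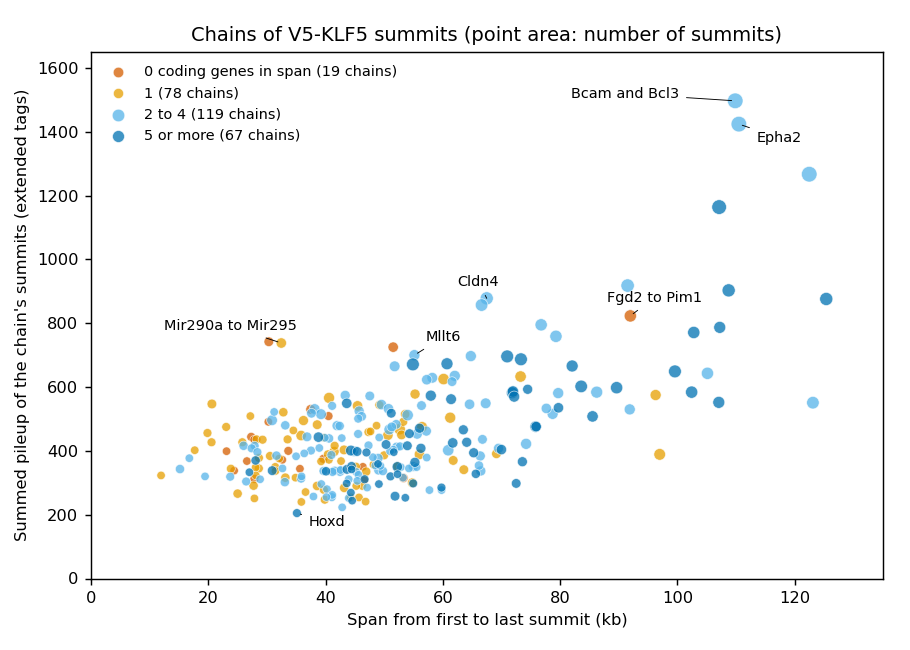
Span in kb (x axis) and summed pileup in extended tags (y axis) of the 283 chains, 1 point per chain, with the point area proportional to the number of summits and the colour giving the number of protein-coding genes in the span. The chain of Bcam and Bcl3 (1497) and that of Epha2 (1424) stand at the top, and the Hoxd chain (205) at the bottom.

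Inside chains, neighbouring summits lay a median of 3114 bp apart, and 546 of the 3499 gaps (15.6%) were under 1 kb. From the end of a chain to the next summit outside it the median distance was 22021.5 bp, and 348 of 566 such distances (61.5%) were under 25 kb. Many chains therefore end at a gap that a doubled linking distance would have bridged. The number of chains moved with the rule, to 73 at a distance of 6.25 kb and to 702 at 25 kb.

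At the threshold of 10 summits the values changed gradually. The 82 chains with exactly 10 summits had a median summed pileup of 343, a median span of 42.7 kb and a median strongest fold enrichment of 15.4. The 81 chains with 9 summits, just outside, had medians of 282, 34.3 kb and 13.5. Just inside, the chain of Pou5f1, Tcf19 and Cchcr1 had a summed pileup of 522, that in Plec, the gene of the cytoskeletal linker plectin, 509, and a chain without a coding gene at chr5:25526320-25556558 had 491. Just outside, the chain in Ssc4d had a summed pileup of 526, that of Amotl2, a Hippo pathway scaffold, 524, and that of Zbtb45, Gm31649, Trim28, Chmp2a and Ube2m 477. Strong groups of summits thus lie on both sides of the limit.

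Peaks in chains were only slightly stronger than the others. Their median fold enrichment was 5.37 (interval 5.18 to 5.39), against 5.18 (5.17 to 5.19) for all other peaks, and these intervals touch. The median pileup was 26 in chains and 24 elsewhere, and the median peak length 468 bp in chains and 424 bp elsewhere. A fold enrichment of 10 or more was reached by 624 chain peaks, or 16.5% (15.3% to 17.7%), and by 5208 other peaks, or 12.7% (12.4% to 13.0%), with 13.0% over all peaks of these chromosomes. The strongest peak of all was not in a chain, with a maximum fold enrichment of 53.0 in chains and 58.7 elsewhere. Of the 283 chains, 178 (62.9%) had a median fold enrichment above that of the other peaks.

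The share of strong peaks was higher in longer chains, up to a point. An enrichment of 10-fold or more was seen in 11.6% of peaks that stood alone, in 12.6% of those in groups of 2 to 4 summits, and in 14.8% of those in groups of 5 to 9. In chains of 10 to 14 summits the share was 17.1% of 2317 peaks, and in chains of 15 or more it was 15.6% of 1465 peaks, with overlapping intervals. The share of summits near a start site did not follow this order, with 22.9% for single peaks, 24.6%, 20.2%, 18.2% and 19.9% for the largest chains.

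**Figure D2:**
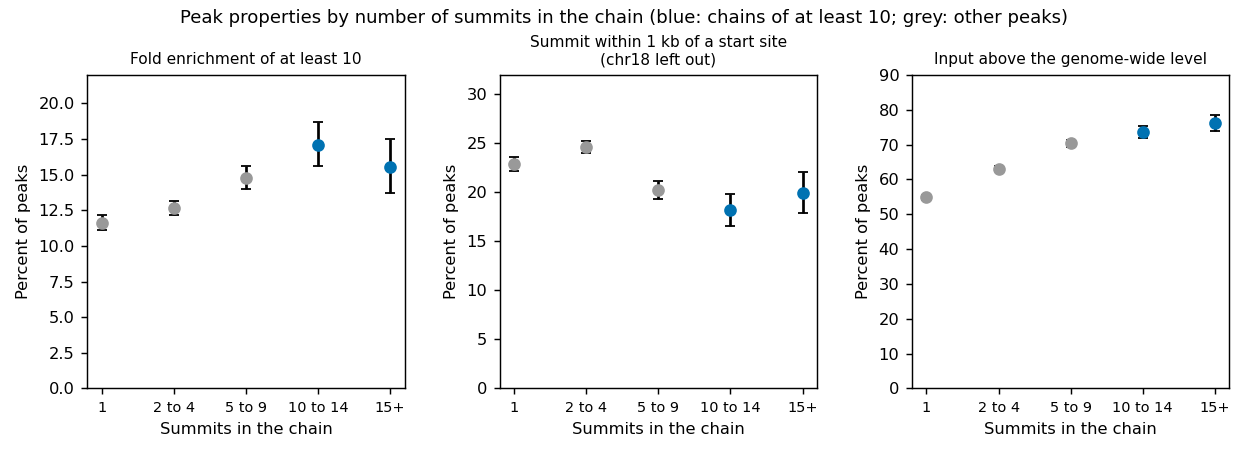
Percent of peaks (y axes) enriched at least 10-fold over input, with a summit within 1 kb of a start site, and with input above the genome-wide level, by the number of summits in the chain (x axes). Bars are exact 95% intervals for counting error that count each peak as separate. The share with raised input is 54.8% for single peaks and 76.2% in chains of 15 or more.

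Input, the background against which fold enrichment was computed, moved with chain membership. The recovered input background lay above the genome-wide floor of 3.10 at 2824 chain peaks, or 74.7%, and at 61.7% of the other peaks, with 62.8% over all peaks. Its median was 3.75 in chains and 3.45 elsewhere, and it was more than 2 times the floor at 4.07% of chain peaks and 2.89% of the others. Chains also lie where genes are dense, with a median of 13 coding gene ends within 100 kb of a chain summit and 5 around the other summits. Whether raised input or gene density has a part in the chains was not tested. Leaving out every peak with an input above 2 times the floor before chaining gave 246 chains.

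Chain summits were no more concentrated at gene ends or start sites than the other summits were. A coding gene end was within 1 kb of 948 chain summits (25.1%), against 10908 (26.6%) of the other summits, and the share over all peaks was 26.5%. With start sites alone, and without chr18 for which no start sites were used here, the shares were 18.9% in chains (701 of 3714) and 23.2% elsewhere (9201 of 39687). Chain summits lay more often inside a gene and over 1 kb from its ends, at 46.3% against 38.8% of the others. They also lay more often 1 to 10 kb outside the nearest gene, at 15.8% against 10.8%. Farther out the order turned, with 12.9% of chain summits and 23.8% of the others over 10 kb from any coding gene. The gene table gives no exons or transcripts, so exonic and intronic summits cannot be told apart.

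Strong peaks were more frequent in chains at every location given. The intervals were apart only away from gene ends, but they count each peak as separate and can be too narrow for chain peaks, which come in groups. Whether the excess differs between locations was not tested. Within 1 kb of a gene end, 15.7% of chain peaks and 14.5% of other peaks were enriched at least 10-fold, with overlapping intervals. Inside genes the shares were 15.8% in chains and 11.0% elsewhere, and outside genes 18.4% and 13.2%. The strongest peak of a chain was within 1 kb of a coding gene end in 68 of the 283 chains (24.0%), against 26.5% of all peaks. In 83 chains (29.3%) it was over 10 kb from any such end. That count includes peaks deep inside long genes, so it cannot be set against the shares over 10 kb outside genes given above. The share of all peaks at that distance from a gene end was not computed.

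Chains without a gene and chains full of genes differed in shape. The 19 chains with no coding gene had a median span of 33.6 kb and a median strongest fold enrichment of 19.9, and 21.9% of their peaks reached a fold enrichment of 10. The 67 chains with at least 5 coding genes had a median span of 56.3 kb and a median strongest fold enrichment of 13.7, and 13.4% of their peaks reached 10. Between them stood 78 chains with 1 gene, at 17.0%, and 119 chains with 2 to 4 genes, at 17.5%. The share of summits near a gene end ran from 1.83% with no gene to 43.2% with 5 or more. The groups are set by the genes in the span, so the differences in span and in summits near gene ends follow in part from the grouping.

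Chromosome 7 held 50 of the 283 chains, and 21.4% of its 3268 peaks were in chains (20.0% to 22.8%). This interval counts each peak as separate, although peaks enter chains in groups of at least 10, so it is too narrow. Chromosome 7 has 2030 coding genes, the most of the 19 chromosomes, and 1.61 peaks per coding gene, the lowest. Chromosome 10 followed with 13.0%, chromosome 5 with 10.9% and chromosome 4 with 10.7%. Chromosome 12 had 1 chain and 1.43% of its peaks in it.

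**Figure D3:**
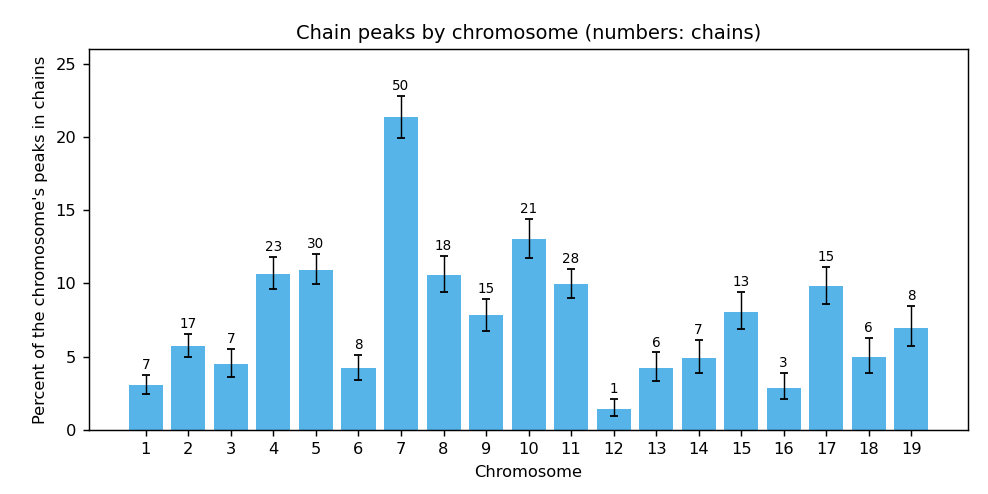
Percent of each chromosome's V5-KLF5 peaks that lie in chains (y axis) for chr1 to chr19 (x axis), with the number of chains above each bar. The exact 95% intervals count each peak as separate and are too narrow, because peaks enter chains in groups. Chromosome 7 stands highest at 21.4% and chromosome 12 lowest at 1.43%.

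Some chains lay close to another chain. Of 264 neighbouring pairs, 50 were within 100 kb and 145 within 1 Mb, and the median distance was 0.835 Mb. Joined at 100 kb, 77 chains formed 27 runs of at most 6 chains. The run with the most summits, at chr10:81266721-81655429, had 6 chains and 88 summits from Tjp3, a tight junction scaffold, and its neighbours to Tle5, Tle2 and Tle6, Groucho-type co-repressors. A second run of 6 chains, at chr7:18910684-19436551, held 81 summits and included Foxa3, Vasp and Fosb. These genes were singled out after their positions were seen.

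The largest chain, by summits and by summed pileup, covers 4 genes at chr7:19728870-19838722. Nectin2 and Bcam encode cell adhesion molecules, Cblc a ubiquitin ligase of the CBL family, and Bcl3 a nuclear partner of NF-κB. It has 34 summits over 110 kb, a summed pileup of 1497 and 10 peaks enriched at least 10-fold, the highest such number in any chain. Its strongest peak, with a fold enrichment of 22.8, lies 1517 bp outside Bcl3, and the next, at 19.9, inside Bcam and 1365 bp from its start site. The chain also has peaks of 16.7 before the Bcam start site and 12.5 at the Nectin2 promoter printed above. Peaks at or above 10 lay beside all 4 genes, and the top 3 summits held 23.5% of the pileup. This share depends on the number of summits, so it cannot be set against that of chains with fewer.

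The chain at Epha2, which encodes an Eph receptor tyrosine kinase, also has 34 summits, at chr4:141228709-141339184. Its 3 strongest peaks, with fold enrichments of 31.4, 27.1 and 18.9, form a group 14204, 9509 and 16678 bp from the start of Epha2, in the interval between it and Arhgef19, the gene of a guanine nucleotide exchange factor. The Epha2 promoter summit has 12.3. Of the 34 summits, 26 lie outside coding genes. The third chain with 34 summits covers Ahdc1 and Wasf2, an actin regulator of the WAVE family, over 122 kb of chr4. It has a summed pileup of 1267 and a strongest fold enrichment of 38.2, 8109 bp from Wasf2.

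Among the chains with 22 to 30 summits, several centre on few genes. The chain of Irgc1, Plaur, Cadm4, Zfp428 and Irgq on chr7 has 30 summits, a summed pileup of 1164 and its strongest peaks, 32.7 and 29.1, 1561 bp from Zfp428 and 1322 bp from Plaur, the urokinase receptor gene. The only chain of chr12 has 25 summits and a summed pileup of 918 and covers Irf2bpl and the start of Cipc, which encodes a repressor partner of CLOCK. Its strongest fold enrichment is 17.8, 8355 bp from Irf2bpl on the side away from Cipc. The chain of Mettl27 and Cldn4 on chr5 has 24 summits and a summed pileup of 878, and its strongest peak, 17.4, is inside the tight junction gene Cldn4 itself. The chain of C77080 and Sync on chr4 has 22 summits and a summed pileup of 857, of which 41.0% is in 3 summits, led by a peak of 37.5 inside C77080.

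Others cross gene-dense intervals. On chr9 a chain of 24 summits covers 15 genes with a summed pileup of 903, and its 3 strongest peaks lie in Gnai2 (17.6), which encodes an inhibitory G protein subunit, 13 bp from the start of Ifrd2 (17.5) and 1212 bp from the hyaluronidase gene Hyal1 (15.7). The longest chain, 125 kb on chr17, holds 24 summits over Rnf39, Ppp1r11, Znrd1, Znrd1as, 2410137M14Rik, H2-M5, Zfp57 and Mog. It ends at its strongest peak, 18.8, 88 bp before the start of Gabbr1, a GABA-B receptor gene. Zfp57 encodes a zinc-finger protein that maintains imprints. A chain of 23 summits over Stk11, Cbarp, Atp5d, Midn, Cirbp, Fam174c and Efna2 on chr10 has a strongest fold enrichment of 14.9, in Midn. A chain of 23 summits over Cd2bp2, Tbc1d10b, Mylpf, Septin1, Zfp553, Zfp771 and Dctpp1 on chr7 reaches 21.3, in Septin1. A long chain need not hold a strong peak. The chain of 1700001O22Rik, Ntmt1, Asb6 and Prrx2 on chr2 spans 123 kb with 22 summits, and its highest fold enrichment is 7.65.

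**Figure D4:**
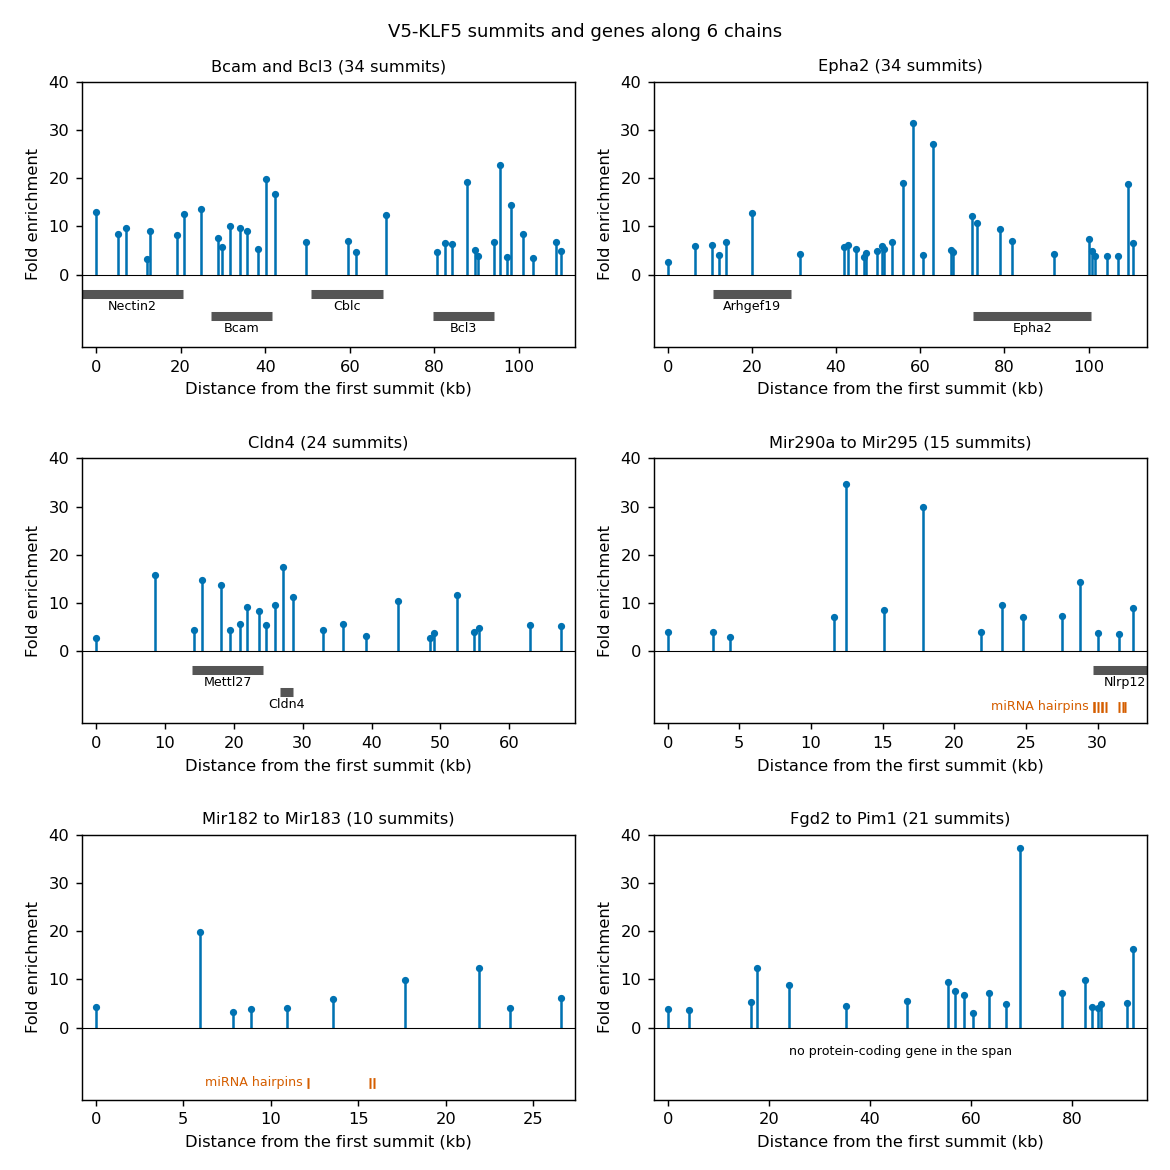
Fold enrichment of each V5-KLF5 summit (y axes) against its distance from the first summit of the chain in kb (x axes) for 6 chains. Grey bars are protein-coding genes cut at the panel edge and orange marks are microRNA hairpins. In the Epha2 chain the highest summits, up to 31.4, stand between the genes, and in the chain between Fgd2 and Pim1 a single summit reaches 37.2.

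The 5 densest chains span 11.9 to 20.6 kb. The chain at Zfp280b on chr10 packs 10 summits into 11.9 kb, or 8.37 per 10 kb, with a strongest fold enrichment of 21.0. That at Apoc1 and Apoe, 2 apolipoprotein genes on chr7, has 12 summits at 7.91 per 10 kb and a strongest peak of 18.1, which is 2694 bp from Apoc1. Zbtb7a, the gene of a BTB zinc-finger repressor, has a chain of 13 summits at 6.31 per 10 kb, 11 of them inside the gene. The strongest peak of this chain, 43.2, lies inside Zbtb7a. The chain at Myadm has 5.96 summits per 10 kb and peaks of 15.1 and 13.6 in that gene. Id1, an inhibitor of basic helix-loop-helix factors and a target of BMP signalling, has 5.65 per 10 kb, with a strongest peak of 19.2 at 9271 bp from the gene. The strongest peak of any chain, 53.0 with a pileup of 296, lies 592 bp from the start of Mllt6 on chr11 in a chain of 17 summits, and it was singled out after its value was seen. The next peak of that chain, in Cisd3, has 11.2.

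Of the 19 chains without a coding gene, the one with the most summits lies at chr17:29381684-29473651 between Fgd2 and Pim1, a serine/threonine kinase gene that responds to LIF and STAT3 signalling. It has 21 summits over 92.0 kb, a summed pileup of 823 and 1 dominant peak of 37.2, 39328 bp from Pim1. The chain ends 2149 bp from Fgd2 and 17134 bp from Pim1, and 3 long noncoding RNA genes overlap it. Between Plekhg6 and Cd9, a tetraspanin gene, a chain of 15 summits on chr6 has peaks of 30.1, 25.1 and 16.1. Between Spen and Fblim1 on chr4, 13 summits include peaks of 41.0, 23.9 and 18.1, and the chain ends 537 bp from Fblim1. A chain of 13 summits between Gnpda1 and Ndfip1 on chr18 reaches 21.1. A chain of 12 summits on chr5, whose nearest coding gene is the homeobox gene Uncx, reaches 10.8.

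Chains that held 1 coding gene placed their summits differently. Those with the most summits are given here. Srcin1 had 19 summits, of which 14 were inside the gene, and none reached a fold enrichment of 10 (highest 8.39). Ephb2, another Eph receptor gene, had all 18 summits inside the gene, with 5 at or above 10 and a highest of 21.2. Hes1, a Notch target that encodes a repressor, had 1 of 18 summits inside the gene and a highest of 16.4, 2137 bp outside it. Tfap2a had 10 of 18 inside, and Tgif1, a homeobox co-repressor gene of TGF-β signalling, 3 of 17 with a highest of 20.3.

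Both chains of the microRNA clusters shown above had their strongest summits outside the hairpins. At chr7:3188931-3221381 the chain of the miR-290 to miR-295 group, whose products are abundant in mouse ES cells, had 15 summits and a summed pileup of 738. The coding gene Nlrp12 overlaps its last 3 summits. Its highest fold enrichments were 34.6 and 29.9, at 12.4 and 17.8 kb from the first summit, while the first hairpin, Mir290a, begins at 29.7 kb. A further peak, of 14.3 at 28.8 kb, lay just before the hairpins. A summit inside the Mir291a hairpin had 3.84. At chr6:30153844-30180428 the chain of Mir182, Mir96 and Mir183 had 10 summits, no coding gene and a summed pileup of 368, with fold enrichments of 19.9, 12.3 and 9.80 at its 3 strongest summits. The noncoding gene Mirc35hg, which spans the hairpins, held 6 of the 10 summits. Of 1136 microRNA genes on these chromosomes, 57 (5.02%) overlapped a chain, in 39 chains. In a smaller RefSeq set of hairpins, which does not cover every microRNA gene, 48 of 919 (5.22%) overlapped 37 chains.

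Of 20661 protein-coding genes, 847 (4.10%) overlapped a chain. The shares were 1.88% of long noncoding RNA genes and 0.326% of pseudogenes. Among genes with a start site in the promoter table, 569 of 671 that overlapped a chain (84.8%) and 8277 of 15785 others (52.4%) had a summit within 1 kb of it. A gene in a chain lies by construction where summits are close, so this share is given as a description. The 21 gene lists below are set beside the 4.10% of all coding genes, with no test, and long genes and genes in clusters have more chances to overlap a chain.

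**Figure D5:**
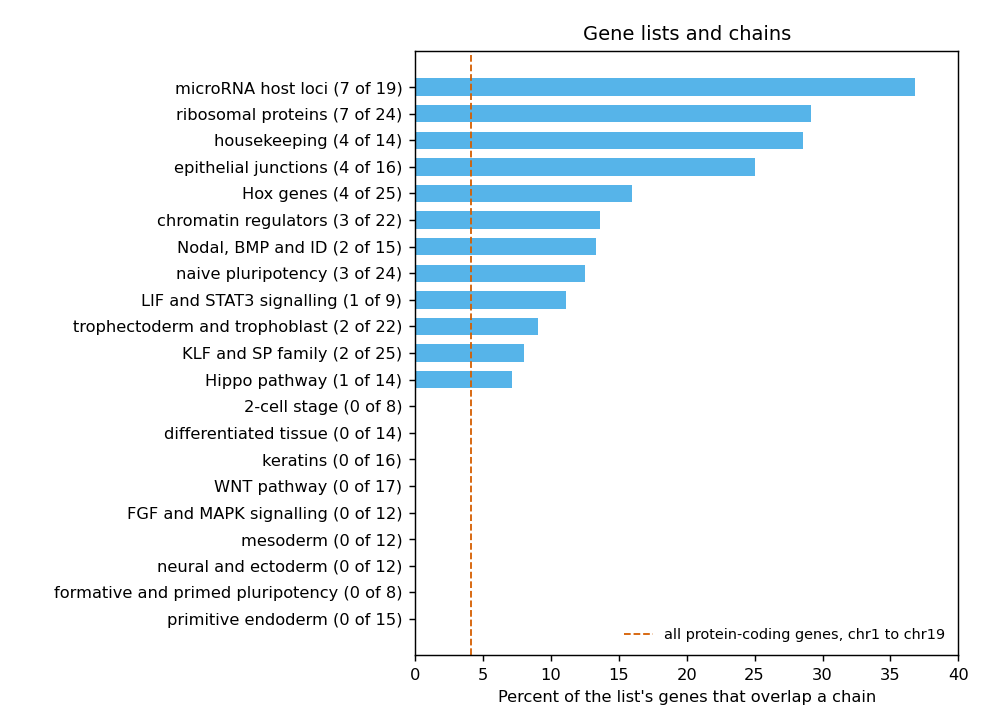
Percent of the genes of each list on chr1 to chr19 that overlap a chain (x axis), with the counts beside the list names (y axis). The dashed line marks 4.10%, the share of all protein-coding genes, and 9 lists stand at 0.

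Of 24 naive pluripotency genes, 3 overlapped a chain. Pou5f1, which encodes OCT4, lay in a chain of 10 summits with fold enrichments of 25.7 and 15.1 at 1991 and 3099 bp from the gene. The chain of Sall4, a zinc-finger factor gene of ES cells, had 10 summits with peaks of 17.9 and 16.6 inside the gene. Dppa5a, a marker of undifferentiated ES cells, had no summit inside it, and peaks of 17.1 and 10.6 within 3392 and 1281 bp of it, beside one of 26.3 nearer to Ooep. Of 22 trophectoderm and trophoblast genes, 2 overlapped a chain. Tfap2a, a trophectoderm transcription factor gene, had 18 summits and a highest fold enrichment of 12.3, at 18411 bp from the gene, and the second gene was Cldn4. In the LIF and STAT3 list, 1 of 9 genes overlapped a chain, Pim3, with a strongest peak of 17.0.

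Of 16 epithelial junction genes, 4 overlapped a chain. Cdh1, the gene of E-cadherin, held 14 of the 15 summits of its chain, with peaks of 15.5, 15.5 and 12.9 at 29436, 16364 and 5908 bp from the nearer end of the gene. Jup, the gene of plakoglobin, had a chain of 14 summits and a strongest peak of 17.0, and Pkp3, the gene of plakophilin 3, 13 summits and a strongest peak of 9.69 within 10 kb. The 4th was Cldn4.

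The KLF and SP family had 2 of 25 genes in chains. Klf3, a repressor of the family, had 11 summits with peaks of 20.4 inside the gene and 19.3 at 490 bp before it. Klf9 had 10 summits with peaks of 21.0 at 7092 bp and 13.7 at 352 bp. In the Hippo list 1 of 14 genes overlapped a chain, Tead3, whose strongest peak within 10 kb was 5.89. In the list of Nodal, BMP and ID genes, 2 of 15 did: Id1 and Smad7, an inhibitory SMAD gene with 10 summits and a highest fold enrichment of 8.48.

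Of the 25 Hox genes on the list, which does not name every Hox gene, 4 overlapped the 2 weak chains of the Hoxa and Hoxd clusters. Hoxa10, Hoxa11, Hoxd10, Hoxd11 and Hoxd12, which the list leaves out, lay in these chains too. The Hoxd chain had 11 summits and the lowest summed pileup of all chains, 205, with a highest fold enrichment of 7.55 at 951 bp from Hoxd13. The Hoxa chain had 13 summits and a summed pileup of 258, with 1 peak of 12.9 between Hoxa7 and Hoxa9 and the rest at or below 4.74. Hoxa13 was the other gene of the list that it overlapped.

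Chromatin regulators had 3 of 22 genes in chains. Tet1, the gene of a 5-methylcytosine dioxygenase, had 15 summits with its strongest peak, 12.4, at 9608 bp before the gene. Jarid2, a component of Polycomb repressive complex 2, had 14 summits with 17.0 at 8396 bp and 12.0 at 2087 bp, and 1 of the 14 summits lay inside the gene. Kdm6b, an H3K27 demethylase gene, had 15 summits and a strongest peak of 22.7.

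Genes used in all cells had the highest shares in chains among the lists of protein-coding genes. Housekeeping genes had 4 of 14 in chains, namely Actb, Rpl13a, Hsp90ab1 and Eno1, with strongest fold enrichments within 10 kb of 16.0, 8.91, 15.3 and 13.1. Ribosomal protein genes had 7 of 24 in chains. The shares were 28.6% of housekeeping (8.39% to 58.1%) and 29.2% of ribosomal protein genes (12.6% to 51.1%). They were 25% of epithelial junction, 12.5% of naive pluripotency and 9.09% of trophectoderm and trophoblast genes, with overlapping intervals. Rps15, Rps2 and Rpl18 had strongest fold enrichments within 10 kb of 10.2, 10.7 and 9.64, and Rps16, Rps19 and Rpl10a also overlapped chains. The microRNA list had 7 of 19 loci in the 2 chains described above. No gene overlapped a chain in the lists of WNT genes (17), keratins (16), primitive endoderm (15), differentiated tissue (14), mesoderm (12), FGF and MAPK signalling (12), neural and ectoderm genes (12), the 2-cell stage (8) and formative and primed pluripotency (8). Lists of this size leave exact upper limits of 19.5% to 36.9%.

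In GC content and in the shares of 4 C-rich motifs, promoter windows with a chain summit differed less from those with another summit than from those with none. GC content had a median of 62% in the 345 windows with a chain summit, 63.3% in the 5124 with another summit and 53.3% in the 14615 with no summit. CCCNCCC, searched on both strands, was found in 78.8% of windows with a chain summit, 79.4% with another summit, 46.9% with none and 55.7% of all 20084 windows. CCACGCCC was found in 19.4% with a chain summit, 15.8% with another, 3.89% with none and 7.20% of all. The longer form CCCCGCCC, which contains CCCNCCC, was found in 40% with a chain summit, 43.2% with another, 17.0% with none and 24.1% of all. CCCCACCC, which also contains it, was found in 15.1% with a chain summit, 14.6% with another, 9.77% with none and 11.1% of all. The E-box CACGTG, taken as a contrast, was found in 8.41% with a chain summit, 10.9% with another, 6.81% with none and 7.89% of all. A match is a description of the letters in a window, which are richer in G and C where summits lie.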

How the data were processed

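The authors' peak lists of the 3 immunoprecipitates were used. Per the file headers they were made with MACS2 2.1.0.20140616, each from 1 library against the input of the same cells, at a q-value cutoff of 0.05, with 51 bp tags extended to 250 bp. Bowtie 0.12.8 and mm10 are named in the submitters' processing notes. Per peak the authors deposited a summit position, a pileup signal, −log10 values of p and q (the p-value and the q-value), and a fold enrichment, the ratio of (pileup + 1) to (input background + 1). These values are the authors' and served to describe and rank peaks within 1 list.

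From them the input background was recovered, with a floor of 3.10 taken as the genome-wide level and an input more than 0.01 above it called raised. Summits were chained (Python 3.11.15, pandas 2.3.3) by code checked on simulated positions. Genes and start sites came from RefSeq GRCm38.p6 tables, with start sites for 16456 of 20661 coding genes and none used for chr18, and coordinates are 1-based. Of 334 list symbols, 332 matched.

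Named chains were the 10 with the most summits, the 10 with the largest summed pileup, the 5 densest, the 5 longest and the 5 without a coding gene with the most summits, with their genes and strongest peak. Also named were list genes in chains, with values for up to 4 per list, and 3 chains on each side of the limit. Some genes that the rule names are not reported here. Sequences followed 8 candidate promoters in named chains, of which 4, picked after their values were seen, are printed. The rule, lists and members were chosen with earlier results of these data known. Depth sets a floor to the weak summits of a chain, and each group has 1 library, so no test was run.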

Additional observations from a re-analysis of the deposited data

Results flagged for a closer look

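A chain outside chr1 to chr19 was found when the same rule was applied to the other sequences. It lies at chrX:7722078-7765902 and holds 12 summits over 43.8 kb, with Wdr45, Praf2, Ccdc120 and Tfe3 in its span. Its summed pileup is 236, its median fold enrichment 5.00 and its strongest 6.83. Neither control list has a peak there, although these lists hold 3 and 0 peaks in all. It is given as a value because no comparison above uses chrX.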

How the results depend on the processing

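The number of chains depended on the rule. It was 73 at a linking distance of 6.25 kb, 702 at 25 kb, 497 with at least 8 summits, 78 with at least 15, 18 with a −log10 q of at least 10 and 186 after summits under 1 kb apart were merged. The peaks in chains numbered 843, 11759, 1465 with at least 15 summits, 207 with the stricter q and 2418 after merging. Among the 18 strict chains, that of Epha2 kept 18 of its 34 summits and that of Nectin2, Bcam and Cblc 17 of 34. The share of summits near gene ends was 20.3% at 6.25 kb. The median fold enrichment was 8.31 with the stricter q and 5.71 after merging. The share at a fold enrichment of 10 or more was 18.9% at 6.25 kb, 15.1% at 25 kb, 30.9% with the stricter q and 19.0% after merging. The share with raised input was 77.8% at 6.25 kb, 71.9% at 25 kb, 76.2% with at least 15 summits and 80.7% with the stricter q. In 7 of 7 alternatives chain peaks were above the other peaks in median fold enrichment, in the share at 10 or more and in raised input, and below them in the share near gene ends. A stricter q leaves fewer and stronger peaks to chain. The cause of the other shifts was not tested. No paired analysis was possible because each group has 1 library. Depth limits how many weak summits are called, and hence chain length, and cannot be varied here.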
